A study of Mus musculus with 9 samples.

Results

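The duplication carried by Dp1Tyb mice includes 4 genes for structural proteins of the ATP synthase and of the mitochondrial ribosome: *Atp5j*, *Atp5o*, *Mrpl39* and *Mrps6*. They were taken by name, from 250 genes of the count table that lie in the duplicated region and 43629 genes in the whole table, for their place in the duplication and their protein product. All 4 passed the filter on low counts, as did 89 genes of the region in all, and 14567 genes were tested. In mouse embryonic fibroblasts (MEFs) the mean level of each was 1.48-fold to 1.61-fold higher in Dp1Tyb than in wild-type (WT) cultures. The levels of *Atp5j*, *Atp5o* and *Mrpl39* did not overlap between the genotypes. The same separation, with Dp1Tyb higher, was found for 51.7% of the region genes tested and 0.686% of all genes tested. It was thus not particular to these members within the region.

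MEFs are connective tissue cells, grown here from embryos without head and viscera. One culture was made from each of 4 WT and 5 Dp1Tyb littermate embryos at E14.5. The strain name begins with C57BL/6J.129P2, and the study describes the background as C57BL/6J after repeated backcrossing. The cultures were grown for a pair of passages before polyadenylated RNA was sequenced as paired 100-base reads. The Dp1Tyb genotype is Dp(16Lipi-Zbtb21)1TybEmcf, a duplication on mouse chromosome 16 (Mmu16) that gives 3 copies of each gene between *Lipi* and *Zbtb21* in place of the 2 copies of WT cells, so the copy ratio is 1.5. It models Down syndrome, in which the orthologous genes on human chromosome 21 are triplicated, and it is carried in every cell from conception. The region spans chr16:75540514-97962622 (GRCm38), or 22.4 Mb.

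The ATP synthase of the inner mitochondrial membrane uses the flow of protons through a membrane rotor to make ATP in a catalytic head, which a peripheral stalk holds still against the rotation. *Atp5j* (also called *Atp5pf*) encodes coupling factor 6 and *Atp5o* (also called *Atp5po*) encodes the oligomycin sensitivity-conferring protein, and both belong to that stalk. The mitochondrial ribosome translates the few proteins encoded in mitochondrial DNA. *Mrpl39* encodes a protein of its large subunit and *Mrps6* one of its small subunit. Nuclear genes for both complexes are known targets of the transcription factors NRF1, GABP and YY1, and their products are imported into the organelle and assembled with many partner subunits encoded elsewhere in the genome.

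The genes form a pair of neighbourhoods 7.09 Mb apart. *Mrpl39* (ENSMUSG00000022889) lies at chr16:84717576-84735742 on the minus strand, 92.1 kb from *Atp5j* (ENSMUSG00000022890) at chr16:84827866-84835625, also on the minus strand. The gap between them holds *Jam2*, which encodes a junctional adhesion molecule. *Atp5j* runs head to head into *Gabpa*, the gene for the DNA-binding subunit of GABP, on the plus strand at chr16:84834925-84863779. Their gene bodies overlap by 701 bases, and 397 bases lie in exons of both. *Atp5o* (ENSMUSG00000022956) lies at chr16:91925214-91931687 on the minus strand. *Mrps6* (ENSMUSG00000039680) lies 127 kb further on, at chr16:92058270-92112227 on the plus strand, and contains *Slc5a3*, the gene for a sodium and myo-inositol cotransporter, which starts 52 bases downstream of the *Mrps6* start and shares 159 exon bases with it.

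Promoter sequences are shown for the members because both overlapping neighbours share promoter bases with a member, and because the elements known from mitochondrial genes can be read in them. RefSeq windows of 250 bases before to 50 after each transcription start (GRCm38.p6) were matched by symbol for all 4 members, *Gabpa* and *Slc5a3*. The windows were searched on both strands for CCGGAAG (ETS family, which includes GABP), CGCATGCG (NRF1), AAGATGGC (YY1), the 19-base ZNF143 and THAP11 element, and the GC box GGGCGG (Sp1), motifs chosen with these promoters in view. The *Atp5j* window at the inner of its RefSeq starts (84834976) shares 247 bases with the *Gabpa* window, and held CCGGAAG 61 bases, AAGATGGC 88 bases and CGCATGCG 147 bases before the start. The same bases were counted in the *Gabpa* window from the opposite strand, where they lay 93, 67 and 8 bases before its start. In the lines that follow, the motif is in capitals and each sequence is on the strand of the *Atp5j* gene, at chr16:84835019-84835048, chr16:84835046-84835075 and chr16:84835105-84835134.
Atp5j, ETS motif: agctgagggacCCGGAAGcacttaccctcc
Atp5j, YY1 motif: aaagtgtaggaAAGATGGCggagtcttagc
Atp5j, NRF1 motif: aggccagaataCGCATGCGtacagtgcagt

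The outer RefSeq start of *Atp5j* (84835625) had GC boxes only. *Mrpl39* held CGCATGCG 124 bases before its RefSeq start (84735244), at chr16:84735350-84735379 on the minus strand. The gene as positioned above begins further out, at 84735742, so this site lies in an annotated exon of *Mrpl39*. The *Atp5j* motifs printed above likewise lie in an annotated exon of *Atp5j*. *Atp5o* held the ZNF143 and THAP11 element 85 bases before its start, at chr16:91931691-91931720 on the minus strand. The *Mrps6* and *Slc5a3* windows share 286 bases, and all 4 GC boxes found in them lie in the shared part. The first overlaps the second by a base, and both fall in the printed stretch at chr16:92058210-92058239 on the plus strand, where the capitals mark the first.
Mrpl39, NRF1 motif: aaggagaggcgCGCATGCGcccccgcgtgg
Atp5o, ZNF143 and THAP11 element: tacggACTACAACTCCCAGCATGCaagagg
Mrps6 and Slc5a3, GC box: cctccgggagagGGGCGGggcggtgccggg

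Of 32851 RefSeq promoter windows, 8.86% held CCGGAAG, 1.87% CGCATGCG, 2.75% AAGATGGC, 0.134% the ZNF143 and THAP11 element and 35.7% a GC box. Counted by gene, CCGGAAG was present for 5 of 13 partner genes of the ATP synthase with a window, 16 of 44 of the large and 10 of 24 of the small mitoribosomal subunit, against 9.93% of all genes. For CGCATGCG the counts were 3 of 13, 5 of 44 and 1 of 24, against 2.07% of all genes. AAGATGGC was present for 2 of 13, 7 of 44 and 6 of 24, against 3.19%, and a GC box for 5 of 13, 17 of 44 and 16 of 24, against 38.2%. The ZNF143 and THAP11 element was found for 0 of 13, 0 of 44 and 1 of 24, against 0.159%. These matches describe letters in the reference genome, and binding was not measured.

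The libraries held 25571442 to 30009361 counts for WT and 24804539 to 26782380 for Dp1Tyb. By their labels the cultures fall into a pair of sets, with replicate 1 of each genotype in set 1 and the other 7 cultures in set 2, and what a set shares is not stated there. All 10 fibroblast markers examined were expressed. Dp1Tyb replicate 2 stood apart, with the lowest mean correlation with the other cultures (0.957, and next WT replicate 1 at 0.965). Its summed fibroblast markers were the lowest of all cultures, at 39610 CPM (counts scaled to library size). The other Dp1Tyb cultures were at 57779 to 66065 and the WT cultures at 46656 to 61747. In Dp1Tyb replicate 2 the summed skeletal muscle markers were the highest (243 against 24.7 to 47.5, and 14.4 to 73.0 in WT), with *Myod1*, *Myog* and *Ckm* at no more than 3 counts. Its summed macrophage markers were the lowest (14.8 against 22.8 to 340, and 63.0 to 235 in WT). Its summed neural and Schwann cell markers were the highest (110 against 58.9 to 74.5, and 62.3 to 99.3 in WT), as were its endothelial markers (16.5 against 4.47 to 13.7, and up to 14.7 in WT). Members' values that this culture moved strongly are also given without it, and the part of these markers in the members' levels was not tested.

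*Atp5j* was measured at 2101, 2318, 2320 and 2207 normalised counts (TMM-scaled, replicates in order) in the WT cultures. In the Dp1Tyb cultures it was at 3019, 3889, 3231, 3079 and 3297 normalised counts. The genotypes were separated by a gap that was wider than the whole spread of the WT cultures. The mean rose from 2236 ± 105 (SD, n = 4) to 3303 ± 346 (SD, n = 5), which is 1.48-fold. The log2 fold change was 0.56 (SE 0.08, 95% interval 0.37 to 0.75), with an edgeR adjusted p of 0.0417 (quasi-likelihood, Benjamini-Hochberg over all genes tested). It was the only member past 0.05, and leaving out any single culture other than Dp1Tyb replicate 2 took it to the other side (adjusted p 0.0194 without that culture, up to 0.207 without another).

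*Atp5o* stood at 2889, 3684, 3315 and 3452 normalised counts in WT. The Dp1Tyb cultures gave 4456, 5666, 5206, 4634 and 5182 normalised counts. Again no Dp1Tyb culture reached down to the WT range. The means were 3335 ± 334 (SD, n = 4) and 5029 ± 486 (SD, n = 5), a 1.51-fold difference, and the log2 fold change was 0.59 (SE 0.10, 95% interval 0.37 to 0.81). The edgeR adjusted p was 0.0717, which misses the threshold.

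*Mrpl39* was less abundant in reads, at 731, 839, 786 and 883 normalised counts in WT. The Dp1Tyb values were 1200, 1545, 1144, 1234 and 1216 normalised counts, all above WT, with replicate 2 highest. The means were 810 ± 66.0 (SD, n = 4) and 1268 ± 159 (SD, n = 5), a 1.57-fold difference. The log2 fold change was 0.65 (SE 0.10, 95% interval 0.42 to 0.87), with an edgeR adjusted p of 0.0505, and of 0.0223 without Dp1Tyb replicate 2.

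*Mrps6* varied more from culture to culture. Its WT values were 454, 907, 779 and 588 normalised counts. Its Dp1Tyb values were 1106, 1856, 826, 817 and 888 normalised counts, so that replicates 3, 4 and 5 lay within the WT range and replicates 1 and 2 above it. The coefficient of variation was 29.5% in WT and 40.0% in Dp1Tyb, against 4.69% to 12.5% for the other 3 members in either genotype. The Dp1Tyb figure rested on replicate 2: without that culture it was 14.8% for *Mrps6* and 3.26% to 7.85% for the others, and the *Mrps6* mean was 909 ± 135 (SD, n = 4). The means were 682 ± 201 (SD, n = 4) and 1098 ± 439 (SD, n = 5), and the log2 fold change of 0.69 (SE 0.29, 95% interval 0.05 to 1.33) was the largest point estimate of the 4 and the least precise. The edgeR adjusted p was 0.999728 (unadjusted p 0.0380), and the log2 fold change was 0.42 without Dp1Tyb replicate 2 and 0.86 without WT replicate 2.

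**Figure D1:**
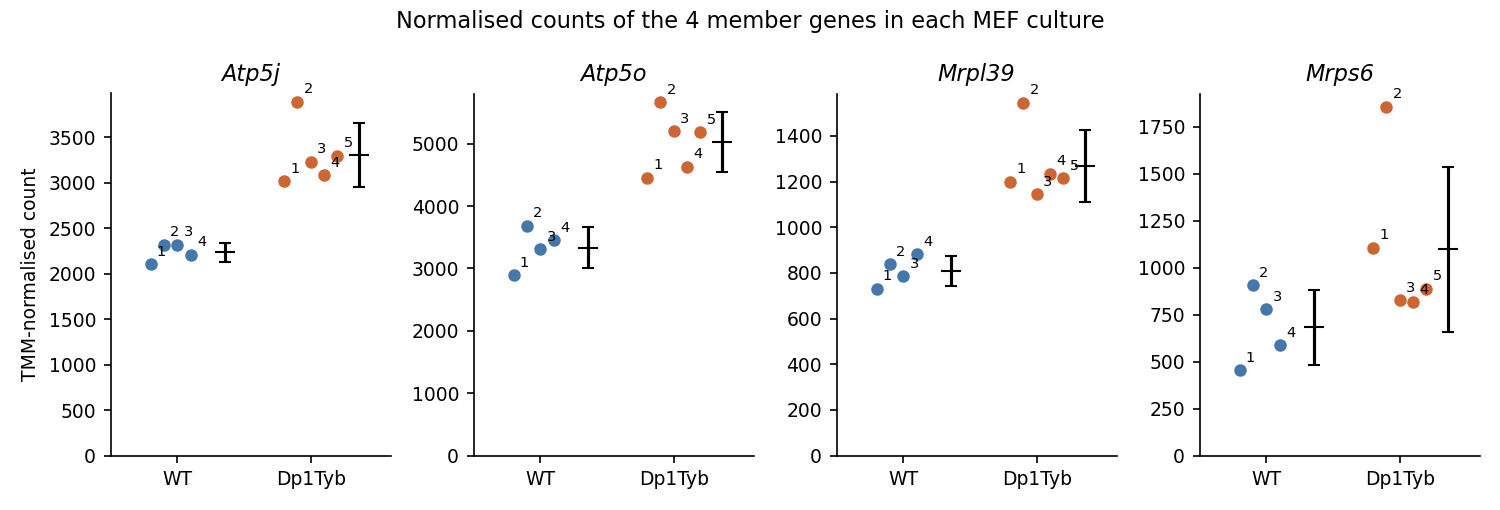
TMM-normalised counts (vertical axis, from 0, with its own scale in each panel) of the 4 genes in 4 WT (blue) and 5 Dp1Tyb (orange) cultures, numbered by replicate, with the mean and SD in black. The genotypes do not overlap for *Atp5j*, *Atp5o* and *Mrpl39*, whereas 3 of the 5 Dp1Tyb cultures fall within the WT range for *Mrps6*.

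The exact permutation test over cultures, two-sided on log2 normalised counts, gave p = 0.00794 for each of *Atp5j*, *Atp5o* and *Mrpl39*, the smallest that 4 against 5 cultures can give, and p = 0.0873 for *Mrps6*. Within set 2 alone, 3 WT against 4 Dp1Tyb cultures, the log2 differences were 0.56, 0.57 and 0.61 for the first 3 genes, each with exact p = 0.0286, again the smallest possible. For *Mrps6* the difference within that set was 0.46 (exact p = 0.371), and in set 1, with 1 culture per genotype, it was 1.28. In set 1 the genotype and the single cultures cannot be told apart.

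The calls were read against those of the duplicated region as a whole. With edgeR, 1 of the 4 members was called higher in Dp1Tyb, beside 22 of 89 region genes (24.7%) and 24 of all 14567 genes tested (0.165%), and edgeR called no gene lower (258 had an unadjusted p under 0.05 in that direction, 1.77%). All Dp1Tyb cultures exceeded all WT cultures for 3 of the 4 members, beside 51.7% of the region's genes and 0.686% of all genes tested. The DESeq2 Wald test called those 3 members (adjusted p 4.64e-06 for *Atp5j*, 4.85e-05 for *Atp5o* and 2.66e-05 for *Mrpl39*, and 0.999 for *Mrps6*), beside 39.4% of region genes and 0.293% of all genes with an adjusted p. It called 20 genes lower (0.122%), none of them in the region. With 4 members, counts of 1 or 3 do not set the members apart from the region. By fold change the members ranked 21 (*Mrps6*), 29 (*Mrpl39*), 42 (*Atp5o*) and 49 (*Atp5j*) of 89 in the region. Their median log2 fold change was 0.62, beside 0.57 (quartiles 0.45 and 0.68) for the other 85 region genes tested.

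The log2 of the copy ratio, 0.58, lay within the 95% interval of all 4 members. The members were also compared with each other as log2 ratios within each culture, in 6 pairs. The ratio changed between genotypes by between -0.10 (*Atp5j* relative to *Mrps6*) and -0.02 (*Mrpl39* relative to *Mrps6*) on the log2 scale, and no pair passed the test (exact permutation p between 0.214 and 0.960, adjusted over the 6 pairs 0.914 to 0.960). For the pairs without *Mrps6* the ratio varied between cultures with an SD of 0.06 to 0.14 within a genotype. For the pairs with *Mrps6* it was 0.33 to 0.44, so that only a large difference from *Mrps6* could have been seen.

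**Figure D2:**
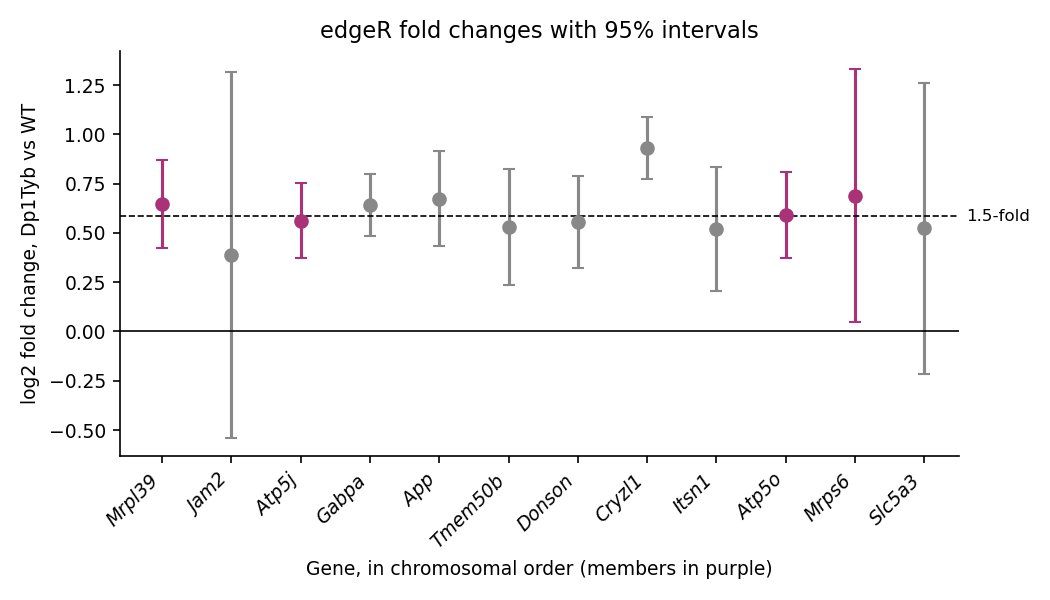
log2 fold change (vertical axis, edgeR, Dp1Tyb vs WT) with 95% intervals for the 4 members (purple) and the 8 tested neighbours (grey), in chromosomal order, with lines at 0 and at a fold of 1.5. All 4 members' intervals hold the dashed line, and those of *Mrps6*, *Slc5a3* and *Jam2* are the widest.

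The neighbours tested were those next to the members on Mmu16. *Gabpa* was 1.56-fold higher (log2 fold change 0.64, SE 0.07, edgeR adjusted p 0.0102). *App*, which encodes the amyloid precursor protein, was at 1.595-fold (log2 0.67, SE 0.11, edgeR adjusted p 0.0584). *Cryzl1*, a quinone oxidoreductase-like gene, had the largest difference of these genes at 1.91-fold (log2 0.93, SE 0.07, edgeR adjusted p 0.00211), and its interval of 0.78 to 1.09 was the only one of the 12 that did not hold log2 of 1.5. *Itsn1*, which encodes an endocytic scaffold, *Tmem50b* and *Donson*, a replication factor, had log2 fold changes of 0.52, 0.53 and 0.55 and did not pass the edgeR test. *Jam2* had a log2 fold change of 0.39 (95% interval -0.54 to 1.31) and -0.14 without Dp1Tyb replicate 2. *Kcne2*, a potassium channel subunit gene, had at most 1 count in any culture and was not tested.

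*Mrps6* and *Atp5j*, the members that overlap a counted protein-coding neighbour, were set beside it in each culture. Relative to the WT mean, *Mrps6* was at 1.49 and *Slc5a3* at 1.41 (log2) in Dp1Tyb replicate 2, and at 0.75 and 0.77 in Dp1Tyb replicate 1. In Dp1Tyb replicates 3, 4 and 5 *Mrps6* was at 0.33, 0.31 and 0.43, and *Slc5a3* at -0.03, -0.26 and 0.16. The culture with the highest level was thus the same for both genes. The *Slc5a3* log2 fold change was 0.52 (95% interval -0.21 to 1.26), and 0.19 without Dp1Tyb replicate 2. The log2 ratio of *Mrps6* to *Slc5a3* was 0.25 higher in Dp1Tyb, within the spread of cultures (SD 0.27 in WT and 0.23 in Dp1Tyb, exact permutation p = 0.190). *Atp5j* and *Gabpa* did not share a highest culture: in Dp1Tyb replicate 2 *Atp5j* was at 0.80 and *Gabpa* at 0.66, while the 5 Dp1Tyb cultures spanned only 0.58 to 0.68 for *Gabpa*. Their log2 ratio differed by -0.09 between genotypes (exact permutation p = 0.452).

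**Figure D3:**
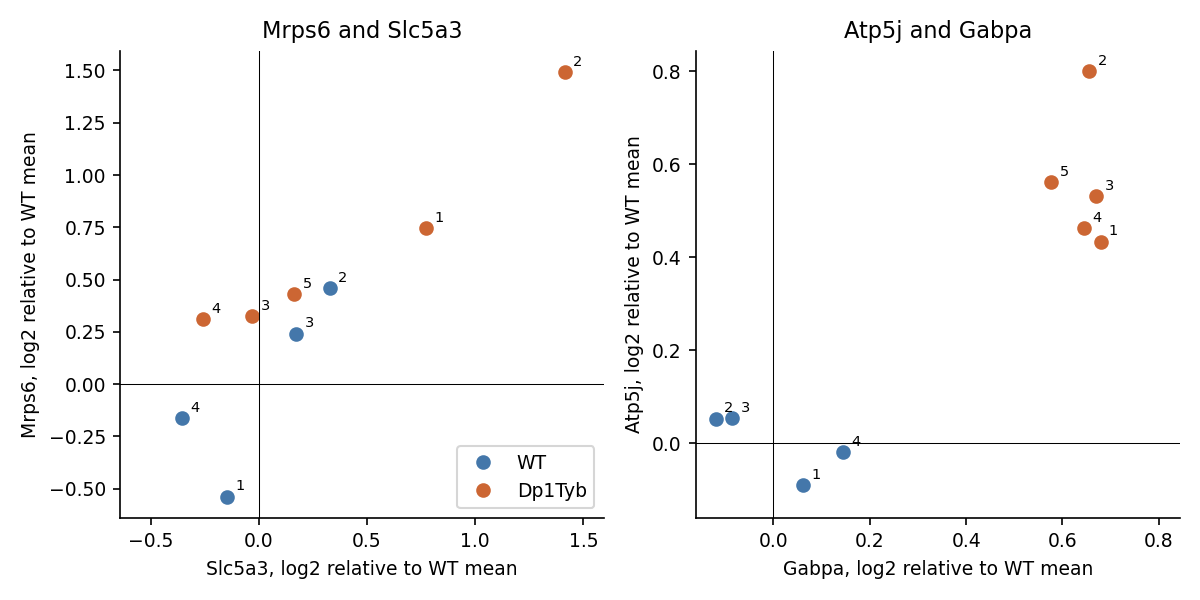
Each point is a culture (WT blue, Dp1Tyb orange, numbered by replicate), with the log2 level of a member relative to its WT mean on the vertical axis and that of the overlapping neighbour on the horizontal axis. *Mrps6* and *Slc5a3* reach 1.49 and 1.41 in Dp1Tyb replicate 2, whereas *Gabpa* varies little among Dp1Tyb cultures.

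Reads from shared exons bear on these values. The shared exon bases make up 12.7% of the *Atp5j* exons (with *Gabpa*, opposite strand) and 10.4% of the *Mrps6* exons (with *Slc5a3*, same strand), and the setting by which the counting divided such reads, by strand or otherwise, is not given in the sources used here. *Atp5o* shares 17.5% of its exon bases with the antisense gene *D430001F17Rik* and 18.1% with the antisense gene *Gm15976*. Reads from the shared bases cannot be told apart without strand, and these antisense genes had at most 3 counts in any culture. Whether *Atp5o* lost reads there was not tested. The annotation also holds gene models on the same strand that have no row in the count table and share exon bases with a member, a further protein-coding *Atp5o* entry (ENSMUSG00000116933, 243 bases, 12.3% of the *Atp5o* exons) and *Gm49711* (305 bases, 19.9% of the *Mrps6* exons). The only other close copy of a member in the count table was *Gm5436*, a processed pseudogene on chromosome 12 that matches *Atp5o* at 97.045% over 643 bases, with 2 counts in all cultures together. Reads with more than one alignment had been discarded, so reads that align to both would not be in these counts.

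A question the design allows is whether the other subunits of the same complexes, encoded outside the duplication, had changed with the members. None of the 15 ATP synthase partners was called by edgeR or by DESeq2, and none had an unadjusted edgeR p under 0.05. Their median log2 fold change was 0.0025 (-0.080 to 0.046 with each culture left out), beside 0.0027 over all genes tested, with 8 above and 7 below 0. The lowest were the c-ring gene *Atp5g3* (-0.10, SE 0.13) and the central stalk gene *Atp5e* (-0.10, SE 0.11). The highest were *Atp5b*, the catalytic beta subunit (0.08, SE 0.17), and *Atp5f1* of the peripheral stalk (0.06, SE 0.09). *Atp5h*, the remaining peripheral stalk gene, was named after its value was seen, to complete the stalk, and was at -0.06 (SE 0.10, edgeR adjusted p 0.999728). Of the 4 stalk genes, then, the 2 in the duplication were at 0.56 and 0.59 and the 2 outside it at -0.06 and 0.06.

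Among 6 assembly factors and inhibitors of the ATP synthase none was called, with log2 fold changes from -0.21 (*Fmc1*, SE 0.22) to 0.21 (*Tmem70*, SE 0.19). The assembly factor *Atpaf2* was at 0.09 (SE 0.06) and *Tmem242* at -0.04 (SE 0.08). The mitochondrially encoded subunit genes *mt-Atp6* and *mt-Atp8* were at -0.05 (SE 0.15) and 0.25 (SE 0.16) and were not called. The mitochondrial rRNAs, which are only partly retained when polyadenylated RNA is selected, were at -0.42 (*mt-Rnr2*, SE 0.20) and -0.27 (*mt-Rnr1*, SE 0.19), neither called, and at -0.18 and -0.07 without WT replicate 3.

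For the mitochondrial ribosome, of 49 large-subunit partners tested none was called, 30 were above and 19 below 0, and the median log2 fold change was 0.024 (-0.028 to 0.052 with each culture left out). The extremes were *Mrpl48* (-0.10, SE 0.08) and *Mrpl14* (-0.07, SE 0.09) at the low end, and *Mrpl38* (0.12, SE 0.13) and *Mrpl32* (0.12, SE 0.09) at the high end. Of 29 small-subunit partners none was called, 16 were above and 13 below 0, and the median was 0.0098 (-0.031 to 0.039 with each culture left out). These ran from *Mrps21* (-0.08, SE 0.16) and *Mrps12* (-0.07, SE 0.13) to *Ptcd3* (0.13, SE 0.12) and *Mrps10* (0.22, SE 0.13). In both lists no gene had an unadjusted edgeR p under 0.05, beside 1.36% higher and 1.77% lower over all genes tested, and none was called by DESeq2.

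Because partners were measured in the same libraries, each member was then expressed in every culture as its log2 level minus the mean log2 level of its partners. This removes movement that a member shares with its partners, and adds movement of the partners that the member does not share. Relative to the WT mean, *Atp5j* was at 0.17, -0.13, 0.00030 and -0.04 in WT and at 0.58, 0.55, 0.56, 0.57 and 0.57 in Dp1Tyb. The spread of *Atp5j* among Dp1Tyb cultures was thus small on this scale (SD 0.013, against 0.13 in WT), and replicate 2, the highest in normalised counts, became the lowest of the 5. Before the subtraction, *Atp5j* in WT spanned only -0.09 to 0.05 around its mean. The partner mean varied with an SD of 0.19 in WT and 0.16 in Dp1Tyb, so the WT spread on this scale is not that of *Atp5j* alone. The difference between genotypes was 0.57, or 1.48-fold (exact permutation p = 0.00794). *Atp5o* spanned -0.06 to 0.06 in WT and 0.52 to 0.67 in Dp1Tyb, a difference of 0.60 (exact permutation p = 0.00794). *Mrpl39* spanned -0.10 to 0.13 in WT and 0.46 to 0.74 in Dp1Tyb, a difference of 0.63 (exact permutation p = 0.00794).

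*Mrps6* relative to the small-subunit partners was at -0.37, 0.35, 0.19 and -0.18 in WT. In Dp1Tyb it was at 0.84, 1.32, 0.32, 0.38 and 0.38. On this scale 1 Dp1Tyb culture lay within the WT range, and 4 lay above it. The difference of 0.65 had an exact permutation p of 0.0397, and this call was lost within set 2 (0.48, exact p = 0.200) and when any culture other than Dp1Tyb replicate 3 was left out (exact p 0.0536 to 0.125, and 0.48 without Dp1Tyb replicate 2). The partner means themselves differed between genotypes by -0.0090 for the ATP synthase, 0.015 for the large and 0.013 for the small subunit (exact permutation p 0.960, 0.841 and 0.889). These were 4 comparisons of members with partners, and their p-values are not adjusted.

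**Figure D4:**
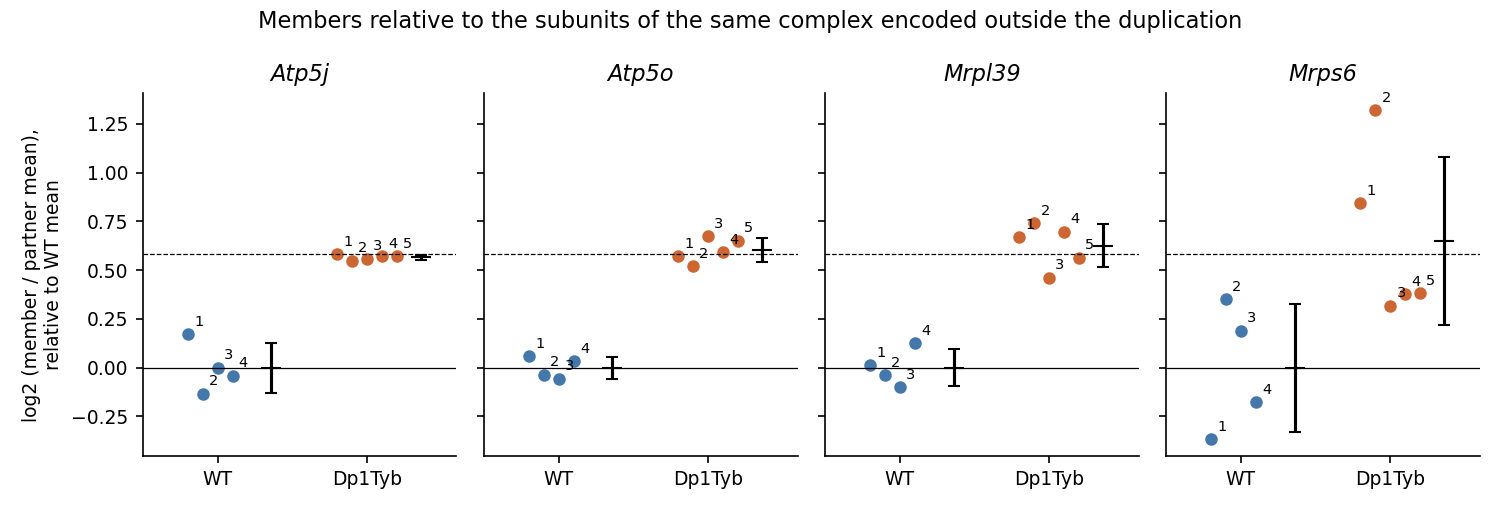
log2 ratio of each member to the mean of its partner subunits (vertical axis, relative to the WT mean) in 4 WT (blue) and 5 Dp1Tyb (orange) cultures, numbered by replicate, with mean and SD in black, a solid line at 0 and a dashed line at log2 of 1.5. The 5 Dp1Tyb values of *Atp5j* lie between 0.55 and 0.58, and those of *Mrps6* spread from 0.32 to 1.32.

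Levels per length place the members among their partners. In RPKM (counts per kilobase of exons, scaled to library size), *Atp5o* averaged 64.9 ± 4.70 in WT (SD, n = 4) and 95.04 ± 8.003 in Dp1Tyb (SD, n = 5). It moved from rank 8 to rank 3 among 17 ATP synthase subunits encoded in the nucleus. *Atp5j* averaged 27.5 ± 0.827 and 39.3 ± 3.54, and moved from rank 13 to 9. Of these 17 the highest was *Atp5b* (190 in WT, 195 in Dp1Tyb) and the lowest *Atp5l* (8.96 and 9.03). The mitochondrially encoded *mt-Atp6* and *mt-Atp8* were not ranked. *Mrpl39* averaged 12.3 ± 0.700 and 18.6 ± 2.05, moving from rank 22 to 15 of 50 large-subunit genes, whose levels ran from *Mrpl48* (2.49 in WT) to *Mrpl54* (33.9 in WT). *Mrps6* averaged 17.02 ± 4.69 and 26.7 ± 10.3, moving from rank 9 to 3 of 30 small-subunit genes, between *Mrps35* (1.56 in WT) and *Mrps21* (38.6 in WT). Without Dp1Tyb replicate 2 its Dp1Tyb mean was 22.3 ± 3.83 (SD, n = 4), at rank 4, and the Dp1Tyb ranks of the other members stayed at 3, 9 and 15.

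Among the members the order of RPKM was *Atp5o*, *Atp5j*, *Mrps6* and *Mrpl39* in both genotypes. *Mrps6* overlapped *Mrpl39* in WT (11.9 to 22.2 against 11.6 to 13.2) and both neighbours in that order in Dp1Tyb (19.5 to 44.1, against 16.99 to 22.2 for *Mrpl39* and 36.01 to 45.2 for *Atp5j*), so that only *Atp5o* was clear of the others in Dp1Tyb. Without Dp1Tyb replicate 2, *Mrps6* spanned 19.5 to 27.9 and lay between *Mrpl39* (16.99 to 18.3) and *Atp5j* (36.01 to 39.2) with no overlap. The overlaps of *Mrps6* depended on the length used. So did ranks, also for some of the highest and lowest genes named above. By the longest coding transcript, *Atp5l* was at rank 9 of 17 in WT, and *Mrpl54* and *Mrpl48* at 3 and 47 of 50. *Atp5b*, *Mrps21* and *Mrps35* kept their WT ranks. With the length of the longest coding transcript in place of all exons, a choice made after the data had been seen, the WT and Dp1Tyb ranks were 5 and 2 for *Atp5o*, 8 and 5 for *Atp5j*, 31 and 24 for *Mrpl39*, and 6 and 2 for *Mrps6*, each again closer to the top of its complex in Dp1Tyb. By that length *Mrps6* did not overlap its neighbours in the order. In Dp1Tyb it spanned 35.4 to 79.8, against 18.8 to 24.5 for *Mrpl39* and 139 to 175 for *Atp5j*. In WT it spanned 21.5 to 40.2, against 12.8 to 14.6 for *Mrpl39*.

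**Figure D5:**
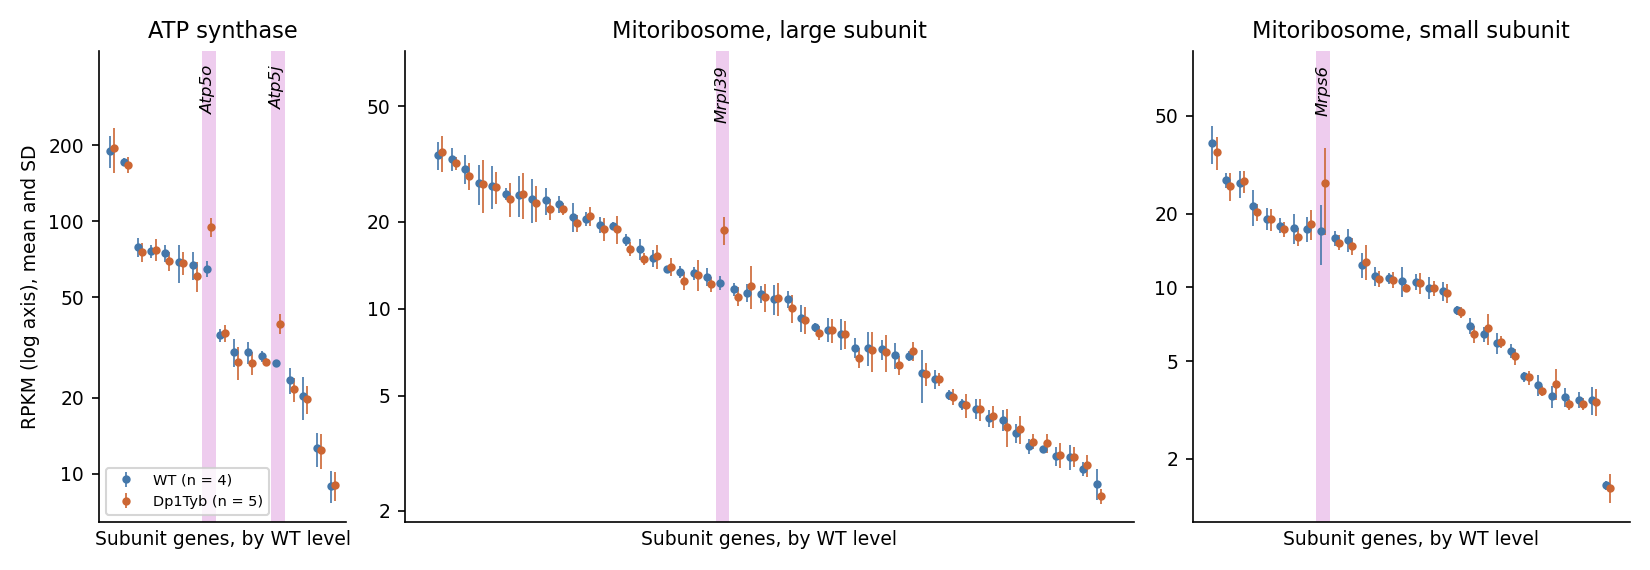
Mean RPKM (vertical, log axis) with SD of every nuclear subunit gene tested in each complex, WT (blue) and Dp1Tyb (orange), ordered by the WT level, with the members shaded. WT and Dp1Tyb means lie close together for the partners and apart for the members, as from 64.9 to 95.04 for *Atp5o*.

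Among 18 nuclear regulators of mitochondrial genes, 2 were called higher by edgeR and none lower, beside 0.165% of all genes tested. Both lie inside the duplication, where 24.7% of the genes tested were called higher. They were the only 2 of the list in that region, and no regulator outside it was called. They were *Gabpa* and *Nrip1*, a corepressor of nuclear receptors that is known to restrain oxidative metabolism genes (log2 fold change 0.60, SE 0.08, edgeR adjusted p 0.0183). *Nrip1* rose from 703 ± 45.7 (SD, n = 4) to 1066 ± 80.3 normalised counts (SD, n = 5), and *Gabpa* from 1875 ± 163 to 2926 ± 81.0. With each culture left out in turn *Gabpa* kept its call in 6 of 9 fits (edgeR adjusted p 0.0172 to 0.0678) and *Nrip1* in 3 of 9 (edgeR adjusted p 0.0291 to 0.0977). *Gabpa* lost it without WT replicate 2 or 3 or Dp1Tyb replicate 5, and *Nrip1* without any WT culture or Dp1Tyb replicate 4 or 5. The median of the list without these genes was -0.07. The lowest were the coactivator genes *Ppargc1a* (-0.56, SE 0.52) and *Ppargc1b* (-0.45, SE 0.42), at mean levels under 40 normalised counts, and both turned positive without WT replicate 1 (0.32 and 0.13).

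The genes whose pattern over the 9 cultures was most like each member were found by Pearson correlation of log2 normalised counts, as a description over points that share genotype and library. For *Atp5j* they were *Cfap298* (0.985), *Ifngr2* (0.9751) and *Atp5o* (0.9749). For *Atp5o* they were *Psmg1* (0.990), *Cfap298* (0.981) and *Cbr1* (0.978), with *Atp5j* at rank 4. For *Mrpl39* they were *Usp16* (0.987), *Ifngr2* (0.971) and *Atp5j* (0.971). All of these genes lie in the duplicated region. For *Mrps6* the first 3 lie outside it: *Htr2b* (0.9754), *Pctp* (0.968) and *Tnni1* (0.956). Over the 8 cultures without Dp1Tyb replicate 2 these were 0.949, 0.925 and 0.896. *Slc5a3* was at rank 112 for *Mrps6* (0.888, and 0.727 without Dp1Tyb replicate 2), ahead of *Atp5j* at 794, *Mrpl39* at 834 and *Atp5o* at 1223 of 14566 genes. In bulk RNA a change in the share of cells that express a gene and a change in RNA per cell cannot be told apart.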

How the data were processed

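RNA of 9 MEF cultures (4 WT, 5 Dp1Tyb, 1 per embryo) was sequenced from stranded mRNA libraries. Per the labels and the study's methods, the authors trimmed reads with Trim Galore, mapped them to GRCm38 with TopHat2 2.0.12, removed multiply aligned reads and counted the remainder per gene with HTSeq. The deposited counts without normalisation were used. The deposited normalised values and the authors' DESeq2 comparison (fold changes and p-values) were not used.

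Symbols, positions and exon lengths came from the GENCODE M21 annotation and promoters from RefSeq. Counts were tested with edgeR 4.0.16 in R 4.3.3 (TMM, filterByExpr, quasi-likelihood, two-sided) on genotype over 14567 genes, with Benjamini-Hochberg adjustment and a threshold of 0.05. DESeq2 1.42.0 was an alternative, as were other scaling, filters, the culture set, a replicate block and each culture left out. Single values were tested by exact permutation on log2(normalised count + 1). The edgeR script was tested on simulated data. Replicate cultures differed by more than sampling noise.

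Named were all members, all tested neighbours, list genes called or the 2 extremes in each direction, the highest and lowest level per complex, and the 3 most alike genes. The members and lists were chosen with earlier results of these data known. Intervals of edgeR cover the spread between cultures. A gene at no more than 3 counts was taken as at the floor, which covers counting error only.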

Additional observations from a re-analysis of the deposited data

Results flagged for a closer look

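In 7 of 44 groups of values checked (12 genes, 4 ratios to partners and 6 ratios between members, each by genotype) a single culture lay apart from the rest by Dixon's criterion, and chance alone gives about 1 in 20. Dp1Tyb replicate 2 was the highest for *Mrpl39* (1545 normalised counts), *Mrps6* (1856), *Jam2* (1213) and *Tmem50b* (1213). WT replicate 1 was the highest for *Itsn1* (4882 normalised counts). WT replicate 2 was the highest of its group for *Tmem50b* (743 normalised counts) and the lowest for *Donson* (135 normalised counts).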

How the results depend on the processing

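The log2 fold change of every member stayed positive under all alternatives, and calls near the threshold moved. edgeR called 24 genes, 22 of them in the duplicated region. DESeq2 called 68 (48 higher, 20 lower) and 39 without and 67 and 39 with its beta prior. A replicate block called 0, a threshold of 0.01 called 2 and 2, and no filter called 14 in the region. Members called numbered 3 with DESeq2 (either prior), 2 with TMM factors from outside the region, with at least 10 counts in every culture or with the culture set as a covariate, and 0 without a filter or with the block. *Atp5j* (0.56) lost its call without a filter (adjusted p 0.0594) and under the block (0.56, adjusted p 0.104). *Atp5o* gained one with DESeq2 (0.60, or 0.53 with the prior) and the culture set (0.58, adjusted p 0.0253). *Mrpl39* gained one with DESeq2 (0.65, or 0.56), TMM from outside the region (0.65, adjusted p 0.0499737) and the stricter filter (0.65, adjusted p 0.0431). With the block the adjusted p was 0.0947 for *Atp5o*, 0.104 for *Mrpl39* and 0.726 for *Mrps6*, and 0 regulators were called (0.0858 for *Gabpa*, 0.0908 for *Nrip1*). The labels do not say what a replicate number marks, beyond the set that the replicate 1 cultures share. Deviations of same-numbered cultures correlated at 0.25, 0.73, 0.03 and 0.38. Because 1 of 4 pairs was under 0.1, the numbers were not taken to pair the samples. Without the correlations of differently numbered cultures, these values cannot decide whether the numbers mark pairs.

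With each culture left out in turn, genes called ranged from 2 to 26, those in the region from 2 to 23, members called from 0 to 2, members without overlap between genotypes from 3 to 4, and regulators called from 0 to 2 (their median from -0.055 to 0.017). The log2 fold change ranged from 0.50 to 0.60 for *Atp5j*, 0.53 to 0.64 for *Atp5o*, 0.57 to 0.70 for *Mrpl39* and 0.42 to 0.86 for *Mrps6*, and *Mrps6* relative to partners from 0.48 to 0.77. WT replicate 1 was the lowest WT culture for each member. Without it the log2 fold changes were 0.54 (*Atp5j*), 0.53 (*Atp5o*), 0.60 (*Mrpl39*) and 0.54 (*Mrps6*), each lower than with all cultures. Dp1Tyb replicate 2 was the culture whose removal gave 2 member calls. In set 2 only, *Mrps6* relative to partners was 0.48 and no longer past the test, and the ratios to *Mrps6* turned positive, to 0.10 (*Atp5j*), 0.11 (*Atp5o*) and 0.15 (*Mrpl39*). Leaving out cultures gave -0.067 to 0.0025 for *Atp5j* minus *Atp5o*, -0.24 to 0.046 for *Atp5j*, -0.17 to 0.095 for *Atp5o* and -0.15 to 0.11 for *Mrpl39* minus *Mrps6*. Signs also turned for the median of each list of partner subunits and for *Jam2* (-0.14 to 0.56), *Atp5b* (-0.066 to 0.18), *Atpif1* (-0.073 to 0.039), *Atpaf1* (-0.0073 to 0.062), *mt-Atp6* (-0.13 to 0.13), *Mrps21* (-0.20 to 0.032), *Mrps12* (-0.16 to 0.0077), *Ppargc1a* (-0.83 to 0.32) and *Ppargc1b* (-0.64 to 0.13), none of them called. The cause of these changes was not tested. The lowest count of a member in any culture was 546, and an effect of depth was not tested.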
